A study of Sus scrofa with 8 samples.

Results

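The genes described here carry glucose from the blood into the heart muscle cell, split it to pyruvate and lactate, and store it as glycogen. They were given as a list of 37 gene symbols, and each was matched through the gene names in the authors' deposited table to a gene model in the deposited count table. The match gave 34 of the 31908 gene models in that table. Of the other symbols, PGAM1 and PKM were found through a reference table of gene names, SLC2A1 had no gene model of its own, and a second gene model of LDHB was added by its position. These 3 further models (PGAM1, PKM and LDHB on chromosome 5) are counted apart from the 34. Messenger RNA was measured by bulk sequencing of free wall tissue from the right ventricle of pigs of the breed Yorkshire Cross, with 1 library from each of 8 animals. The 4 banded animals were castrated male piglets whose main pulmonary artery was tied with a tape at 4.5 ± 0.6 weeks of age and a weight of 6.4 ± 1.3 kg, until the peak systolic pressure of the right ventricle was about 30 to 40 mmHg. The 4 controls were of similar age and weight, were housed for 8 weeks and have the treatment "None" in their labels, which do not state their sex or a sham operation. The time between banding and sampling is not given in the sources used here, so age at sampling, sex and the operation itself cannot be told apart from the band.

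Glucose enters the cardiomyocyte through the transporters GLUT1 (SLC2A1) and the insulin-responsive GLUT4 (SLC2A4) and is trapped by hexokinase. Phosphofructokinase is the committed step of glycolysis, and its activator fructose 2,6-bisphosphate is made and broken down by the PFKFB enzymes. Glucose 6-phosphate can also be stored as glycogen, which glycogenin primes, glycogen synthase extends and phosphorylase degrades. The adult heart burns mainly fatty acids, and a larger use of glucose is a known feature of pressure-loaded hearts. Several of the enzymes come as a muscle form and a form of wider expression, such as PFKM beside PFKL and PFKP, PGAM2 beside PGAM1 and ENO3 beside ENO1.

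Some members had too few counts to be tested. The counting command in the file header sets no option for read pairs that match more than 1 gene model, and featureCounts by default leaves such pairs out. The ALDOA model held 0 to 6 counts in a library, and 81.0% of its exon bases were shared with another model on the same strand. ALDOC shared 82.9% of its exon bases with the models of PIGS and SPAG5 and held at most 4 counts. PFKFB1, the form known from liver, held at most 6 counts, and 24.8% of its exon bases were shared with another model. How many read pairs of these 3 genes were left out was not tested, so their counts are not read as levels. The RefSeq span of SLC2A1 on chromosome 6 (168535398 to 168561170, Sscrofa11.1) lies inside the P3H1 model, which has 3140 exon bases there, so GLUT1 is not analysed here. Exon bases were also shared for GPI (64.7%), PGM1 (61.9%) and PHKA1 (33.4%), which held enough counts to be tested and whose levels may be understated. Several models had exon bases outside the RefSeq span of their gene and over that of another gene. Among these, the part inside the span was 31.5% for SLC16A1, 35.5% for PHKG1, 41.9% for TPI1 and 42.8% for PYGM. It was 66.6% for PGAM2, 67.9% for PFKM and 69.2% for ENO3. Their lengths include these outside bases, and the part of other genes in their counts was not tested. LDHB has 2 gene models. The name match gives a model with 1 exon block on chromosome 2 (12988708 to 12990067), and a model with 8 exon blocks lies on chromosome 5 (51810943 to 51831217). The first held 116 to 224 counts in a library and the second 54012 to 96832, and the choice of the second for the LDHB level was made after these counts were seen. The forms of pyruvate kinase that arise from PKM by splicing were counted together.

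The libraries held 31033679 to 34183338 counts, and no pair of libraries in a group differed by less than sampling noise. Of the 13697 genes tested over the whole table with the edgeR quasi-likelihood test, 6.97% were called at an adjusted p under 0.05, 3.47% higher and 3.50% lower in banded animals. The 9 cardiomyocyte markers with a gene model summed to 31297 to 42156 CPM (depth-scaled counts, TMM-normalised) in controls and 41201 to 52339 CPM in banded animals, with 1 called higher (MYL2) and with TNNI3 low throughout, at 2.44 to 20.6 CPM. The 8 macrophage markers summed to 444 to 707 CPM in controls and 694 to 1328 CPM in banded animals (1 called higher), and the 6 cell-cycle markers to 20.8 to 36.9 and 34.7 to 104 CPM (1 called higher). Summed erythroid markers were 1789 CPM for banded 4 but only 74.8 to 322 CPM elsewhere, and the adipocyte sum of 635 CPM for banded 1 compared with 125 to 240 CPM elsewhere. The 7 skeletal muscle markers with a gene model summed to 11049 to 15240 CPM without and 15331 to 27523 CPM with the band, nearly all of it ACTA1 (called higher) and CKM, which heart muscle also expresses. Of the others, PVALB was at 0 in all libraries, and TNNT3, MYLPF, TNNI2 and TNNC2 stayed at or under 1.34 CPM. The 8 fibroblast markers summed to 8589 to 11902 and 7180 to 12665 CPM, with PI16 (2.13 on the log2 scale) and THY1 (1.05) called higher and PDGFRA (-0.49) called lower. The 8 endothelial markers summed to 958 to 1096 CPM in controls and 954 to 1000 CPM in banded animals, with EMCN called lower. Banded 3 stood apart somewhat, with Spearman correlations across genes of 0.9551 to 0.9612 to the other banded libraries. Those among the controls were 0.9751 to 0.9859. The 8 smooth muscle and pericyte markers (0 called) summed to 2384 CPM in banded 3, beside 833 to 1334 CPM elsewhere. CNN1 alone was at 1348 CPM in banded 3. The part of these cells in the member values of banded 3 was not tested. Nothing in the labels says more of the replicates than that they are separate animals, with no pairing or batch. In whole tissue, a change in the number of cells of a type and a change in RNA per cell cannot be told apart.

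Between banded and control right ventricles, 5 of the 31 tested members were higher and 1 was lower. PFKP, ENO1, LDHA, GYG1 and GYS1 rose and PFKFB4 fell, and with the 3 further models PGAM1 also rose, so that 6 of 34 were higher. This is 19.4% of the members by the match, where 6.97% of all genes were called. The median log2 fold change was 0.06 over the members and 0.02 over all genes, and 18 of the 31 values were positive. The groups did not overlap for 8 of the 31 members, beside 15.9% of all genes. With library size alone as the scaling, which shifts the median of all genes by -0.10, 2 members were higher (LDHA and GYG1) and 2 lower (PFKFB4 and PPP1R3C). The count of members called higher fell to 0 without control 2 or without control 3, where 8 were higher at an unadjusted p under 0.05 in edgeR in both cases, and to 1 without control 1 and 2 without control 4. Without banded 1 or banded 4 it was 3, and without banded 2 or banded 3 it was 4. Among all genes the count was 954, and 399, 415 or 409 without control 1, 2 or 3. PFKFB4 was the only member called with each of the 8 libraries left out in turn and under each of the other settings tried. DESeq2 called 8 members higher and 3 lower, beside 12.5% of all genes, and limma-voom 6 and 2, beside 9.79%.

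**Figure D1:**
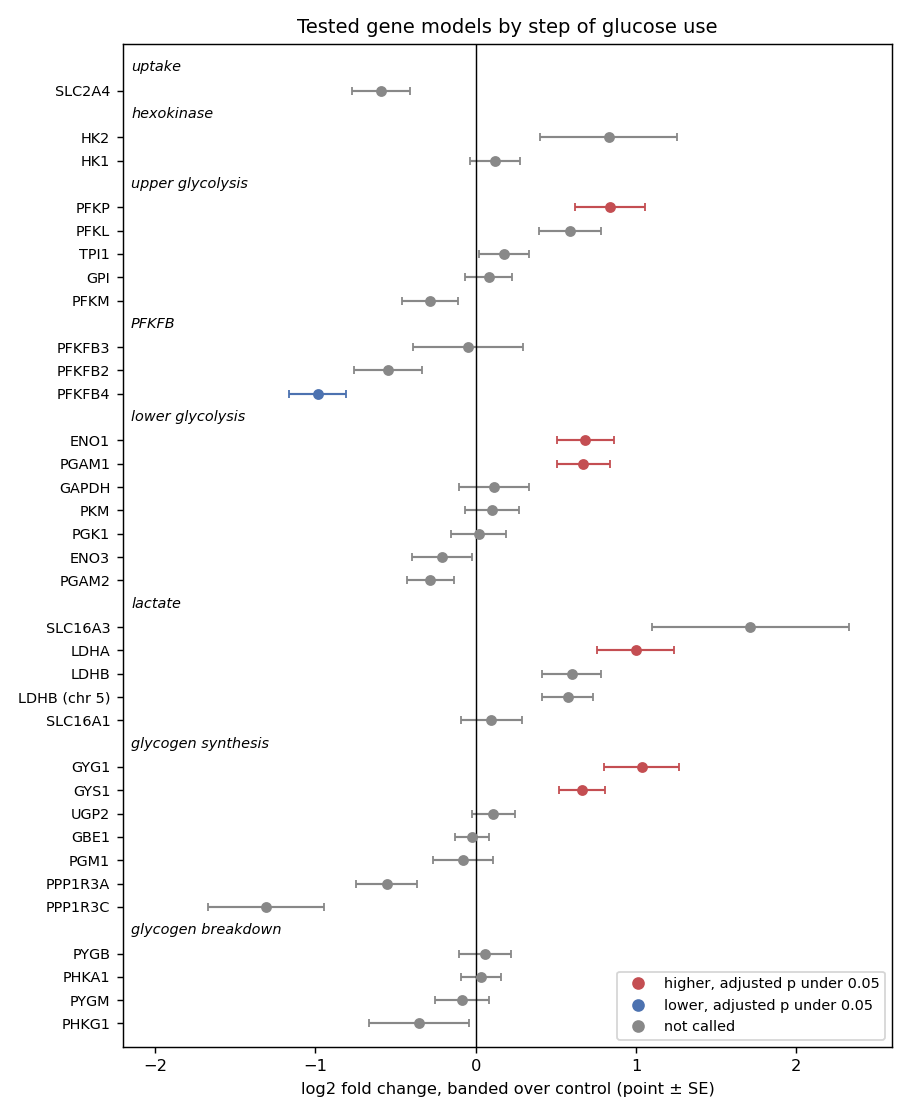
Log2 fold change of banded over control (horizontal axis, point ± SE, n = 4 animals per group) for each tested gene model, grouped by step, with red for models called higher, blue for lower and grey for those not called. The called rises lie between 0.66 (GYS1) and 1.04 (GYG1), and PFKFB4 is the called fall at -0.99.

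GLUT4 had a lower mean in banded animals but missed the threshold. SLC2A4, on chromosome 12, was at 112, 102, 82.8 and 75.5 CPM in controls 1 to 4 and at 82.9, 50.1, 55.4 and 59.3 CPM in banded 1 to 4. Banded 1 lay within the range of the controls and the other 3 banded animals lay below it. The log2 fold change was -0.59 ± 0.18 (SE) with an edgeR adjusted p of 0.0764. Without banded 1, the library with the high adipocyte markers, it was -0.76 with an adjusted p of 0.0265, and DESeq2 called the gene with all libraries (0.0331). The part of adipocytes in the banded 1 value was not tested.

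Hexokinase did not pass the test in either form, under any setting tried. HK1, the form abundant in heart and brain, averaged 314 ± 59.7 CPM in controls, beside 341 ± 14.1 CPM with the band (SD, n = 4, edgeR adjusted p = 0.690). HK2, the insulin-responsive muscle form, was at 9.65, 5.80, 8.20 and 3.40 CPM in controls. Banded 3 (21.5 CPM) and banded 4 (12.7 CPM) were above all controls, banded 1 (6.98 CPM) and banded 2, at nearly the same level, lay among them, and the difference of 0.83 ± 0.43 on the log2 scale was not called (adjusted p = 0.274). Per length, HK1 made up 97.4% ± 1.13 of the summed HK1 and HK2 level in controls and 96.0% ± 2.06 in banded animals.

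PFKFB4, a bifunctional enzyme that sets the level of the phosphofructokinase activator, fell to 0.505 times its control level. It lies on chromosome 13 (31212550 to 31259749) and was at 7.39, 9.57, 8.51 and 10.1 CPM in controls. In banded animals it was at 4.42, 5.03, 3.96 and 4.52 CPM, and the highest banded animal was below the lowest control. The log2 fold change was -0.99 ± 0.18 with an adjusted p of 0.00900, and with 1 library left out the adjusted p was 0.0145 to 0.0369. PFKFB2, the cardiac form, which insulin and adrenergic signals activate, was at 23.7, 22.0, 18.0 and 20.7 CPM in controls and at 13.4, 10.9, 11.5 and 22.0 CPM in banded animals. Banded 4 lay among the controls while the other 3 banded animals lay below all of them, and the gene was not called (log2 fold change -0.55 ± 0.22, adjusted p = 0.152). Without banded 4 the log2 fold change was -0.82 and the adjusted p 0.0116. PFKFB3, the inducible form, ranged from 3.49 to 10.9 CPM in controls and overlapped with the banded range of 4.45 to 8.37 CPM (adjusted p = 0.952).

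**Figure D2:**
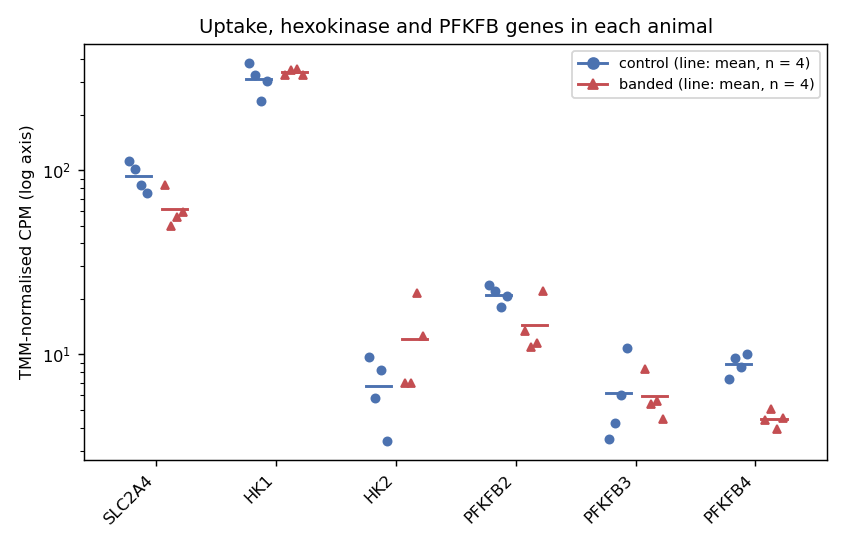
TMM-normalised CPM on a log axis for the glucose transporter, hexokinase and PFKFB genes, with 1 point per animal (circles control, triangles banded) and a line at each group mean. PFKFB4 is the gene here whose groups do not overlap, at 7.39 to 10.1 CPM in controls and 3.96 to 5.03 CPM in banded animals.

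In phosphofructokinase, the platelet form rose while the muscle form did not pass the test. PFKP, on chromosome 10 (67022652 to 67082451), was at 29.7, 30.7, 19.6 and 21.1 CPM in controls and at 37.1, 38.5, 39.1 and 66.3 CPM in banded animals. All 4 banded animals were above all controls, and banded 4, the library with the high erythroid markers, was highest. The log2 fold change was 0.84 ± 0.22 (adjusted p = 0.0452). The call was lost without control 1 (0.0779), control 2 (0.0693), control 3 (0.130), control 4 (0.0980), banded 2 (0.0597) or banded 4 (0.0648, log2 fold change 0.60), and with library size alone (0.0882). PFKL, the liver form, was at 46.2, 51.0, 32.7 and 30.0 CPM in controls and at 58.4, 72.2, 47.0 and 62.8 CPM in banded animals, with banded 3 inside the range of the controls (log2 fold change 0.59 ± 0.19, adjusted p = 0.0912). It was called by DESeq2 (0.0435) and without banded 3 (0.0489). PFKM, the muscle form and the most abundant per length, averaged 589 ± 56.8 CPM in controls, beside 483 ± 116 CPM with the band (adjusted p = 0.359). The part of red cells or macrophages in the PFKP level was not tested.

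In phosphoglycerate mutase and enolase, too, the form of wide expression rose and the muscle form was not called. PGAM1, the form of wide expression on chromosome 14 (108822812 to 108833058), was at 241, 252, 203 and 223 CPM in controls and at 319, 286, 440 and 419 CPM in banded animals. All banded animals were above all controls, with a log2 fold change of 0.67 ± 0.16 (adjusted p = 0.0334). Its call ended without control 1 (0.0858), control 2 (0.0774), control 3 (0.114), control 4 (0.0661), banded 3 (0.0572) or banded 4 (0.0615), and with library size alone (0.0568). PGAM2, the muscle form, averaged 251 ± 31.3 CPM in controls, beside 207 ± 25.3 CPM with the band (log2 fold change -0.28 ± 0.14, adjusted p = 0.264). ENO1, alpha-enolase, on chromosome 6 (69385882 to 69401117), was at 79.4, 98.1, 86.5 and 104 CPM in controls and at 136, 125, 205 and 124 CPM in banded animals. Banded 3 was highest, but the other 3 banded animals were also above every control (log2 fold change 0.68 ± 0.18, adjusted p = 0.0426). That call ended without control 1 (0.133), control 2 (0.0992), control 3 (0.126), control 4 (0.0571), banded 1 (0.0610) or banded 3 (0.0541), and with library size alone (0.0702). ENO3, the muscle enolase, averaged 2678 ± 492 CPM in controls, beside 2312 ± 434 CPM with the band (adjusted p = 0.534).

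The enzymes of the pathway listed with a single gene were not called. GAPDH, which oxidises glyceraldehyde 3-phosphate, averaged 6551 ± 1379 CPM in controls, beside 7084 ± 1755 CPM with the band (log2 fold change 0.11 ± 0.22). The difference was 0.18 ± 0.16 for TPI1, triose phosphate isomerase, and 0.08 ± 0.15 for GPI, glucose phosphate isomerase. PGK1, the first step of glycolysis to yield ATP, differed by 0.02 ± 0.17, and PKM, pyruvate kinase, by 0.10 ± 0.17. Their adjusted p ran from 0.535 to 0.959, and with 4 animals a group these standard errors leave room for small changes. Per kilobase of gene model, GAPDH was the most abundant member in controls (3524 ± 742 RPKM), followed by LDHB on chromosome 5 (1281 ± 176 RPKM) and ENO3 (960 ± 176 RPKM). TPI1 came next at 157 ± 13.6 RPKM, and the levels of LDHB and ENO3 differed by less than the sum of their SDs. PKM was at 108 ± 9.26 RPKM over a model of 14076 bases. By counts it was above TPI1, at 1522 CPM in controls beside 433 CPM. The order of these 2 genes therefore rests on the model lengths, and the TPI1 model had 41.9% of its exon bases inside its RefSeq span.

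**Figure D3:**
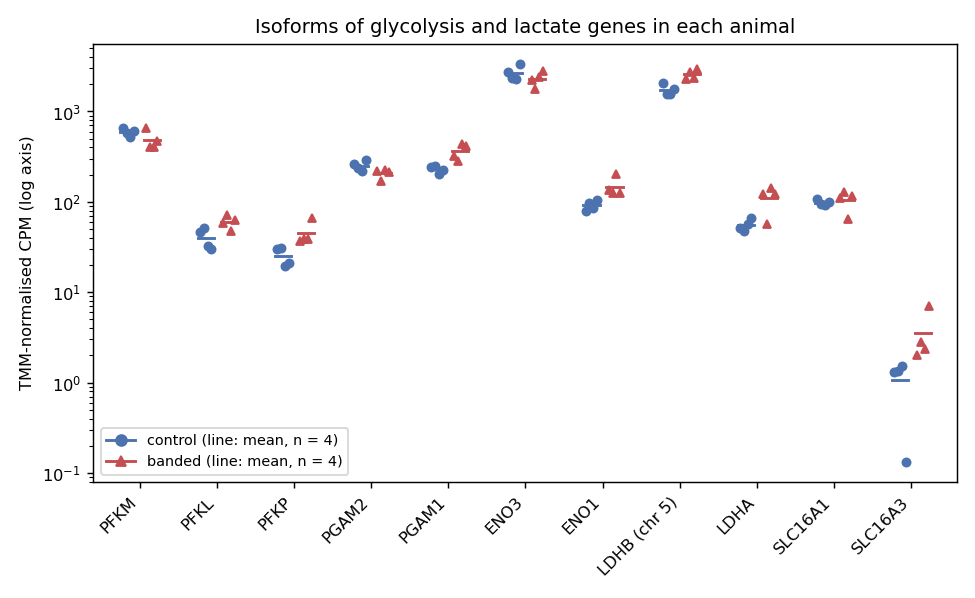
TMM-normalised CPM on a log axis for the isoforms of phosphofructokinase, phosphoglycerate mutase, enolase, lactate dehydrogenase and lactate transport, with 1 point per animal (circles control, triangles banded) and a line at each group mean. The banded animals lie above all controls for PFKP, PGAM1, ENO1, LDHB on chromosome 5 and SLC16A3, and PFKM, PGAM2 and ENO3 overlap.

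Both lactate dehydrogenase genes had higher means in banded animals, and LDHA was called. LDHA, whose subunit is the main one of skeletal muscle, lies on chromosome 2 (40812453 to 40826715) and was at 51.2, 48.0, 56.5 and 65.8 CPM in controls. In banded animals it was at 121, 57.4, 142 and 122 CPM, so banded 2 lay inside the range of the controls. The log2 fold change was 1.00 ± 0.24 (adjusted p = 0.0337). The adjusted p was 0.00181 without banded 2, but the call ended without control 1 (0.104), control 2 (0.108), control 3 (0.0939), banded 1 (0.0662), banded 3 (0.0662) or banded 4 (0.0683). LDHB on chromosome 5, the heart subunit, was at 2061, 1570, 1545 and 1784 CPM in controls and at 2288, 2754, 2353 and 2961 CPM in banded animals. The groups did not overlap, yet the gene just missed the threshold in edgeR (log2 fold change 0.57 ± 0.16, adjusted p = 0.0541). It was called by DESeq2 (0.00254), by limma-voom (0.0350), with a stricter filter on low counts (0.0491) and without mitochondrial-genome genes (0.0498). The chromosome 2 model of LDHB averaged 4.03 ± 0.55 CPM in controls, beside 6.11 ± 0.19 CPM with the band (adjusted p = 0.0748), and it was called by DESeq2 (0.0207) and limma-voom (0.0416). Per length, LDHA was 0.998% ± 0.175 of the summed LDHA and LDHB level in controls and 1.35% ± 0.52 in banded animals, so LDHB was the dominant subunit transcript in every library.

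Of the lactate transporters, SLC16A1 (MCT1) averaged 98.3 ± 6.58 CPM in controls, beside 105 ± 28.2 CPM with the band (adjusted p = 0.803), with banded 3 at 64.9 CPM below all other libraries. SLC16A3 (MCT4), the transporter known for lactate export from glycolytic cells, was rare. It was at 1.32, 1.33, 1.52 and 0.132 CPM in controls and at 2.02, 2.84, 2.35 and 7.02 CPM in banded animals. Every banded animal was above every control, but the spread was wide and edgeR did not call it (log2 fold change 1.71 ± 0.61, adjusted p = 0.125), while DESeq2 did (0.0288). Control 4 held 4 counts of it, and the log2 fold change was 1.35 without that library and 1.15 without banded 4.

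The ratio of 2 isoforms inside a library does not depend on the scaling between libraries. Of 10 isoform pairs listed, 8 could be computed, and 5 of these differed between the groups in an exact two-sided permutation test over animals. Each of the 5 had an exact p of 0.0286, the smallest that 70 assignments can give, and an adjusted p of 0.0457 over the 8 ratios. This adjusted p depends only on how many pairs separated fully and how many were counted, so the 5 calls stand or fall together. Over all 10 listed pairs, these 5 alone would not pass. PFKP over PFKM and PFKL over PFKM also share a denominator. The pairs were listed with earlier results of these data known, and the ratios use the same counts as the values above. PGAM1 had 0.925, 1.08, 0.923 and 0.767 counts per PGAM2 count in controls and 1.47, 1.69, 1.95 and 1.95 in banded animals. PFKP had 0.0455, 0.0530, 0.0380 and 0.0349 counts per PFKM count in controls and 0.0571, 0.0962, 0.0959 and 0.140 in banded animals. In both pairs, every banded animal was above every control, by 0.94 and 1.13 on the log2 scale in the mean. PFKL over PFKM was higher by 0.92 and ENO1 over ENO3 by 0.87, with groups that did not overlap either. SLC16A3 over SLC16A1 was higher by 1.92, and by 1.10 without control 4. For the other 4 of these pairs the difference stayed between 0.73 and 1.36 with any 1 library left out. No ratio passed with a library left out, where 35 assignments remain.

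As a share per length of the 3 phosphofructokinase transcripts, PFKM went from 83.7% ± 2.94 in controls to 71.6% ± 5.77 in banded animals. The share of PFKL went from 9.60% ± 1.93 to 15.5% ± 3.63 and that of PFKP from 6.71% ± 1.03 to 12.9% ± 3.76. PGAM1 went from 58.9% ± 3.34 to 73.3% ± 2.67 of the 2 mutase transcripts, and ENO1 from 2.46% ± 0.40 to 4.49% ± 1.12 of the 2 enolase transcripts. The muscle form therefore remained the main transcript of phosphofructokinase and enolase in all 8 libraries. PGAM1 was above PGAM2 in all 8 on this scale, but by counts it was below PGAM2 in controls 1, 3 and 4. The order in those controls rests on the model lengths, and the PGAM2 model had 66.6% of its exon bases inside its RefSeq span. The outside bases of the PGAM2, PFKM and ENO3 models given above also enter these shares and the ratios. Those of the SLC16A1 model (31.5% inside its span) and the PYGM model (42.8%) enter the ratios with these genes as denominator. In the same exact test, LDHA over LDHB on chromosome 5 (p = 0.400, adjusted 0.457), HK1 over HK2 (0.286, adjusted 0.381) and PYGB over PYGM (0.657, adjusted 0.657) missed the threshold, with groups that overlapped. The summed macrophage and cell-cycle markers given above also reached higher in banded animals, with group ranges that overlapped for both sums. Of the fibroblast markers, PI16 and THY1 were called higher and PDGFRA lower, and the group ranges of the fibroblast sum overlapped. The part of these cells in the ratios was not tested.

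**Figure D4:**
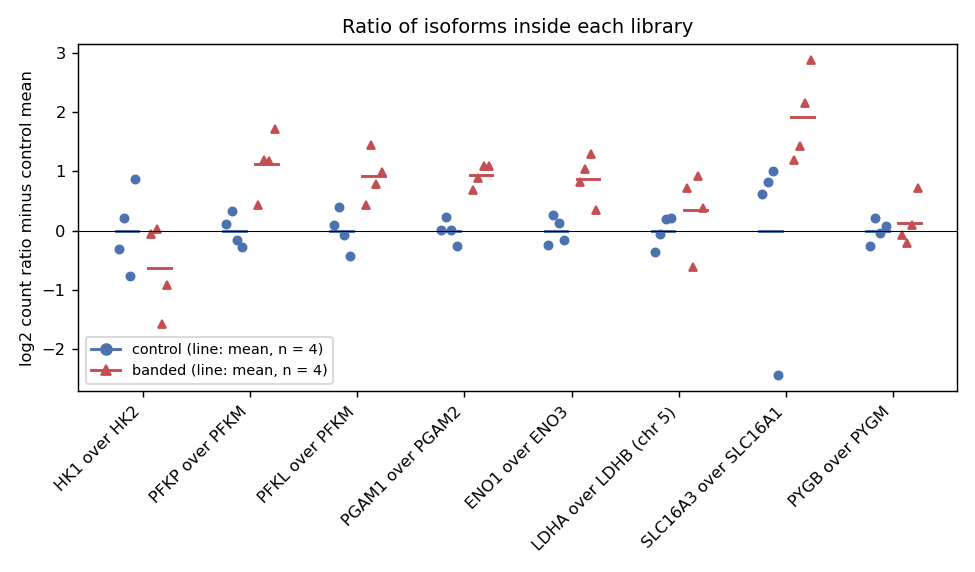
Log2 of the count ratio of 2 isoforms inside each library, minus the control mean of that ratio, for the 8 pairs that could be computed, with 1 point per animal (circles control, triangles banded) and a line at each group mean. Banded animals lie above all controls for PFKP over PFKM, PFKL over PFKM, PGAM1 over PGAM2, ENO1 over ENO3 and SLC16A3 over SLC16A1, where control 4 is low.

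GYG1 and GYS1, which start and extend glycogen, rose, and the 4 breakdown genes among the members did not pass the test under any setting tried. GYG1, glycogenin, the protein primer of a glycogen particle, lies on chromosome 13 (89221149 to 89259815) and was at 161, 128, 153 and 154 CPM in controls. In banded animals it was at 263, 213, 486 and 259 CPM, all above the controls, with banded 3 highest. The log2 fold change was 1.04 ± 0.23 (adjusted p = 0.0246), and 0.72 without banded 3 with the call kept. The call ended without control 1 (0.0659), control 2 (0.0836), control 3 (0.0739) or control 4 (0.0549). GYS1, the muscle glycogen synthase, on chromosome 6 (54233050 to 54250261), was at 170, 160, 127 and 133 CPM in controls and at 272, 212, 230 and 219 CPM in banded animals. The groups did not overlap and the log2 fold change was 0.66 ± 0.14 (adjusted p = 0.0209). Its call ended without control 2 (0.0525) or control 3 (0.0799) and with library size alone (0.0577).

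PPP1R3C, a subunit that targets protein phosphatase 1 to glycogen and so activates the synthase, had the lowest log2 fold change of the tested members. It was at 219, 391, 312 and 520 CPM in controls and at 92.9, 83.9, 206 and 200 CPM in banded animals. All banded animals were below all controls, though banded 3 and 4 came close to control 1. The log2 fold change of -1.31 ± 0.36 missed the threshold in edgeR (adjusted p = 0.0633) and passed in DESeq2 (0.00136), in limma-voom (0.0108), with library size alone (0.0310) and without robust estimation (0.0468). PPP1R3A, the striated muscle subunit of the same kind, was at 50.4, 33.4, 51.5 and 44.5 CPM in controls and at 42.1, 27.2, 28.5 and 24.6 CPM in banded animals, with banded 1 inside the range of the controls (log2 fold change -0.55 ± 0.19, adjusted p = 0.105). Without banded 1 its adjusted p was 0.0315. The glycogen branching enzyme GBE1 averaged 37.8 ± 1.64 CPM in controls, where its relative spread was the lowest of the tested members (4.35%), beside 37.2 ± 1.71 CPM with the band, with a log2 fold change of -0.02 ± 0.11. UGP2, which makes the glucose donor UDP-glucose, differed by 0.11 ± 0.14, and PGM1, which links glucose 1- and 6-phosphate, by -0.08 ± 0.19.

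On the side of breakdown, PYGM, the muscle phosphorylase, averaged 360 ± 52.6 CPM in controls, beside 339 ± 65.9 CPM with the band (log2 fold change -0.09 ± 0.17). PYGB, the brain form that the heart also expresses, averaged 639 ± 50.7 and 665 ± 125 CPM in the same order (0.06 ± 0.16). Of the phosphorylase kinase subunits, PHKA1 averaged 29.6 ± 2.83 and 30.4 ± 2.87 CPM, and PHKG1, the catalytic subunit of muscle, at 13.2 ± 3.08 and 10.3 ± 4.57 CPM, with banded 2 lowest at 4.75 CPM. The adjusted p of these 4 genes was 0.538 to 0.903. Outside the members, the phosphorylase PYGL was higher in every banded animal than in every control. It was not called in edgeR with all libraries (log2 fold change 0.39 ± 0.11, adjusted p = 0.0516). PHKA2, given below, was called lower. The difference between the synthesis and breakdown genes was not tested.

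**Figure D5:**
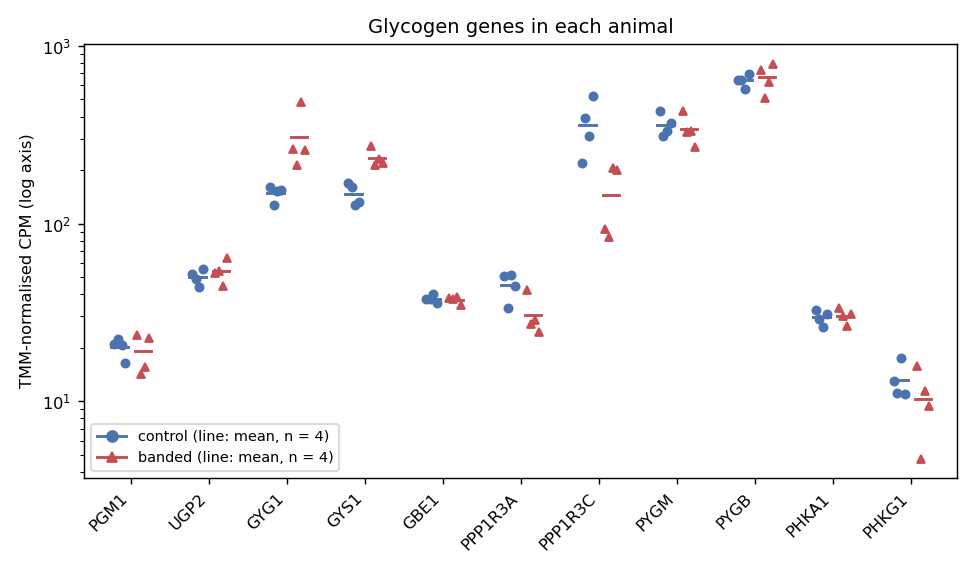
TMM-normalised CPM on a log axis for glycogen genes, with synthesis genes on the left from PGM1 to PPP1R3C and breakdown genes on the right from PYGM to PHKG1, 1 point per animal (circles control, triangles banded) and a line at each group mean. GYG1 and GYS1 lie above all controls in the 4 banded animals and PPP1R3C below all controls, and the 4 breakdown genes overlap.

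A list of 73 other genes around these steps gave 61 tested genes, of which 1 was higher and 6 lower. That is 11.5% called, beside 6.97% of all genes, and the median log2 fold change was 0.12. IRS2, an adaptor in insulin signalling, fell: the controls averaged 55.6 ± 13.7 CPM and the banded animals 23.0 ± 6.46 CPM (-1.27 ± 0.23 on the log2 scale, adjusted p = 0.00939). LDHD, a mitochondrial dehydrogenase of D-lactate, fell from 9.76 ± 0.47 to 2.86 ± 1.30 CPM (-1.76 ± 0.31, adjusted p = 0.00863). OGT, which attaches N-acetylglucosamine to proteins at the end of the hexosamine route, fell from 98.7 ± 5.29 to 51.6 ± 3.54 CPM (-0.94 ± 0.11, adjusted p = 0.000931). These 3 were called with any 1 library left out and under the other settings tried, and their groups did not overlap.

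The remaining calls of this list were less firm. GPD2, the mitochondrial glycerol 3-phosphate dehydrogenase, fell from 17.5 ± 2.16 to 11.2 ± 1.35 CPM (adjusted p = 0.0261). PGM2L1, which makes glucose 1,6-bisphosphate, fell from 9.84 ± 1.11 to 5.60 ± 1.10 CPM (0.0249), and PHKA2, the liver subunit of phosphorylase kinase, from 10.3 ± 3.23 to 5.15 ± 1.02 CPM (0.0309). GYG2, the second glycogenin, rose from 2.17 ± 0.59 to 5.02 ± 1.43 CPM (0.0309). GPD2 lost its call without any 1 control (0.0511 to 0.0922) or without banded 1 (0.0523), and GYG2 without any 1 control (0.0589 to 0.0946), banded 1 (0.0715) or banded 4 (0.0648) and with library size alone (0.0673). PGM2L1 lost it without control 1 (0.0819), control 3 (0.0756), control 4 (0.0514) or banded 2 (0.0600), and PHKA2 without control 1 (0.0994), control 2 (0.0871), control 3 (0.0583) or banded 1 (0.0679).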

How the data were processed

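The authors counted read pairs per gene model with featureCounts 1.6.2, per the file headers, keeping pairs mapped with quality 10 or more, strand setting 2, on Ensembl release 106 of Sscrofa11.1. The deposited counts are whole numbers and not normalised. Trimmomatic, HISAT2 and DESeq2 are named without versions in the submitters' processing notes. The authors' deposited table uses DESeq2 column names, per the file headers. The authors computed its log2 fold changes with control in the numerator, the p-value and the Wald score behind each, and the signal as a mean of normalised values.

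Counts were filtered with filterByExpr (minimum count 10, minimum total 15), scaled by TMM and tested in edgeR 4.0.16 by quasi-likelihood (glmQLFTest, robust, two-sided, Benjamini-Hochberg over 13697 genes, threshold 0.05) in R 4.3.3, which was tested on simulated data. The SE is the log2 fold change over the square root of F. RPKM is the CPM over model length. Isoform ratios used log2(count + 0.5), with adjustment over the 8 that could be computed instead of the 10 planned, and the calls depend on this. P-values measure only the spread between these 8 animals. The limit for 0 counts was 3 counts (counting error only), or 0.0878 to 0.0967 CPM by the total counts of each library. The reported CPM are TMM-normalised, so on their scale this limit differs somewhat.

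Named were all 37 members and, of the other pathway genes, those called, up to 4 per list by adjusted p, and PYGL. Members, lists and pairs were chosen with earlier results of these data known. Alternatives were DESeq2 1.42.0, limma-voom (limma 3.58.1) with quality weights, other scalings and filters, no robust estimation, no mitochondrial-genome genes, and each library left out. The chromosome 2 model of LDHB and the 3 further models were alternatives added after seeing the data.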

Additional observations from a re-analysis of the deposited data

Results flagged for a closer look

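In each group of 4 animals, the gap of the highest or lowest value to its neighbour was compared with the range of the group, over 84 groups of member levels and ratios. By chance about 1 in 20 groups would be marked, and 5 were. PFKP was high in banded 4, at 66.3 CPM, where the other banded animals held 37.1 to 39.1 CPM. ENO1 was high in banded 3, at 205 CPM, with 124 to 136 CPM in the other banded animals. SLC16A3 was low in control 4, at 0.132 CPM beside 1.32 to 1.52 CPM in the other controls, and high in banded 4, at 7.02 CPM beside 2.02 to 2.84 CPM. The log2 count ratio of SLC16A3 over SLC16A1 was accordingly low in control 4, at -9.39. Erythroid markers were also highest in banded 4 (1789 CPM), and their part in the PFKP and SLC16A3 values was not tested. Smooth muscle and pericyte markers were highest in banded 3 (2384 CPM), and their part in the ENO1 value was not tested either.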

How the results depend on the processing

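No paired analysis was possible because the labels give the groups no shared replicate numbers. All genes called were 954, and 1710 by DESeq2 and 399 to 962 with 1 library left out. Members called higher were 5, and 8 by DESeq2, 2 with library size alone and 0 to 4 with 1 library left out. Members called lower were 1, and 3 by DESeq2, 2 with library size alone, by limma-voom or without robust estimation, and 1 to 3 with 1 library left out. With the 3 further models, 6 were higher, and 10 by DESeq2, 2 with library size alone and 0 to 5 with 1 library left out. With those models 1 was lower, and 3 by DESeq2, 2 with library size alone, by limma-voom or without robust estimation, and 1 to 3 with 1 library left out. Other pathway genes called higher were 1 in edgeR (5 at an unadjusted p under 0.05), and 3 by DESeq2 or limma-voom, 2 with at least 50 counts in 4 libraries, 0 with library size alone (2 unadjusted) and 0 in 5 of the 8 fits with 1 library left out (3 to 7 unadjusted), which gave 0 to 1. Other pathway genes called lower were 6, and 3 to 8 with 1 library left out. The cause of these changes was not tested, except that fits with 1 library left out have fewer samples. The median log2 fold change of the members was -0.05 with library size alone and 0.01 to 0.11 with 1 library left out. The 5 ratios that passed also passed with an added count of 2, and 5 passed with the chromosome 2 model of LDHB. That model enters only the ratio of LDHA over LDHB, which is not among the 5. No ratio passed with 1 library left out. No member or other pathway gene that was called, as reported or under a setting listed, changed direction. For SLC16A3, which held 4 counts in control 4, the log2 fold change was 1.15 without banded 4 and 1.35 without control 4, beside 1.71.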

Other observations

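As a sum, the genes of this list took the same share of the RNA in both groups within the spread: 2.86% ± 0.27 of the counts outside the mitochondrial genome in controls and 2.79% ± 0.38 in banded animals. GAPDH (6551 CPM in controls) and ENO3 (2678 CPM in controls) weighed most in this sum. It holds no SLC2A1 and at most 6 counts of ALDOA in a library. The lactate genes took 0.318% ± 0.036 and 0.430% ± 0.071, and the PFKFB genes 0.00607% ± 0.000418 and 0.00380% ± 0.000755. LDHB on chromosome 5 (1740 CPM in controls) weighed most in the lactate sum and PFKFB2 (21.1 CPM in controls) in the PFKFB sum. Neither gene was called in edgeR with all libraries.

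The authors' deposited table gives, at its own adjusted p under 0.05, 7 of the matched members higher and 2 lower in banded animals, and 9 and 2 with the 3 further models. Its values come closest to a fit without the library of banded 3. Over 12959 genes with a deposited mean of at least 10, DESeq2 without banded 3 gave a median absolute difference of 0.00142 from the log2 fold changes in the authors' deposited table, and 93.9% of the means lay within 0.1% of the deposited mean. With all 8 libraries the median difference was 0.0816 and 1.66% of the means lay that close, and with any other library left out it was 0.0859 to 0.126. For genes high in banded 3 the numbers therefore differ: the authors' deposited table turned to banded over control has 0.72 for GYG1, 0.48 for ENO1 and 0.39 for HK2, where all 8 libraries give 1.04, 0.68 and 0.83. Why the deposited values come closest to a fit without banded 3 was not tested.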
